A study of Sus scrofa with 12 samples.

Results

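The genes described here are the interferon response and antigen presentation genes of porcine oviduct epithelial cells, measured in freshly scraped cells and in spheroids. They were chosen by symbol: interferon receptor chains, STAT and IRF transcription factors, interferon-stimulated genes with ISG, IFI, IFIT, MX, OAS, GBP, HERC and similar names, the TRIM genes from TRIM20 to TRIM29, and the genes of class I and class II antigen presentation, which in the pig are called SLA (swine leukocyte antigen). The rule found 53 of the 30461 gene rows, with 52 symbols, because MX1 stood on 2 rows. A filter on low counts passed 51 of them. The other 2, IFITM5 and IFITM10, had 0 counts in every library, which allows at most 0.348 to 0.588 CPM, the count scaled to a common library size, depending on the library. A symbol was missing from 56.5% of the gene rows, and 60 of the 110 symbols on the lists by role had no row, among them B2M, CIITA, NLRC5, TAP2, STAT3, ISG15, IFNLR1 and the classical class I genes SLA-1, SLA-2 and SLA-3, which were not analysed here.

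RNA of Sus scrofa oviduct epithelial cells was sequenced from the 3′ end in 3 groups of 4 libraries, and no genotype, strain, age or time in culture is given for any group. Fresh cells came from scraping the oviduct and went into lysis as single cells, and lysates of all 3 groups were kept in DNA/RNA Shield. The DMEM/F12 spheroids are cultured cell clusters formed in DMEM/F12, whose library names carry FBS, and the incubation medium spheroids were formed in a medium of that name, whose library names carry Diff; neither abbreviation nor the composition of either medium is explained. Nothing says that the 4 libraries of a group came from separate animals, so p-values measure only the spread between these libraries, which may be technical. Library totals ranged from 5045187 to 8603774 counts, and each of the 4 fresh libraries was smaller than each spheroid library. Epithelial markers summed to 3727 to 4372 CPM in fresh cells, 5956 to 7393 in DMEM/F12 spheroids and 4141 to 6147 in incubation medium spheroids, and EPCAM was at 777 to 1049, 513 to 804 and 596 to 929 CPM. Stromal markers summed to 60.2 to 94.9, 12.7 to 35.5 and 7.26 to 13.0 CPM, and endothelial markers to 41.6 to 57.4, 136 to 252 and 91.2 to 148 CPM, with VWF and DES at 0 in fresh cells. Of the 5 tested stromal markers, 2 were called lower in DMEM/F12 and 4 in incubation medium, beside 35.7% and 35.8% of all tested genes. COL1A1, ACTA2 and PDGFRA were not called in DMEM/F12 (log2 fold change of -0.50, -0.27 and 0.67, adjusted p = 0.32, 0.546 and 0.129). Of the endothelial markers CDH5 and KDR were called higher in both media, whereas PECAM1 was called lower (log2 fold change of -0.93, adjusted p = 2.01e-05, and -0.91, adjusted p = 2.48e-05) and TEK, not tested, was lower in all 8 spheroid libraries. Leukocyte markers are given beside the genes they touch.

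Type I interferons act through a receptor made of IFNAR1 and IFNAR2, and interferon gamma through IFNGR1 and IFNGR2. The receptors activate JAK kinases, which phosphorylate STAT proteins; STAT2 and IRF9 are part of the complex that switches on the antiviral genes, whereas interferon gamma, with IRF1 downstream, switches on class I and class II presentation genes. In epithelia of the reproductive tract, both programmes are part of the defence against infection, and class II molecules are carried by professional antigen-presenting cells and, more weakly, by some epithelial cells. The TRIM range and the STAT family also hold genes with other roles, and these are named as such where they are described.

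The first comparison sets the DMEM/F12 spheroids against the fresh cells. The receptor chains IFNAR1, IFNAR2 and IFNGR2, STAT5A and STAT5B and several antiviral effectors rose, ISG20 rose from the detection floor, and IFNGR1, IRF4, IRF9, IFI6 and the class II genes SLA-DRA1, SLA-DMA and SLA-DMB fell. Of the 51 tested members 25 were called higher and 13 lower in DMEM/F12 spheroids (edgeR quasi-likelihood test with Benjamini-Hochberg adjustment over 14070 genes, called at an adjusted p under 0.05). That is 74.5% of the members called, beside 70.7% of all tested genes, so the share of calls was near the background. By direction, 49.0% of members were higher, beside 35.1% of all genes, and 25.5% lower, beside 35.7%. At least 2-fold calls numbered 15 higher and 4 lower of the 51 members. Over all 14070 tested genes they numbered 2118 higher (15.1%) and 2858 lower (20.3%). The members' median log2 fold change was 0.27, against -0.01 over all tested genes.

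In incubation medium spheroids, 22 of the 51 members were called higher and 13 lower than in fresh cells. Calls made up 68.6% of the members, beside 71.7% of all tested genes; 43.1% were higher, beside 35.8%, and 25.5% lower, beside 35.8%. Calls of at least 2-fold numbered 12 higher and 7 lower of the 51 members. Over all 14070 tested genes they numbered 2152 higher (15.3%) and 3031 lower (21.5%). The median log2 fold change of the members was 0.14, against -0.01 over all tested genes. Both spheroid groups were set against the same 4 fresh libraries, so the 2 comparisons share their controls and their likeness is not a separate result. In bulk RNA, fewer cells of a type and less RNA per cell cannot be told apart, which holds for each gene below.

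**Figure D1:**
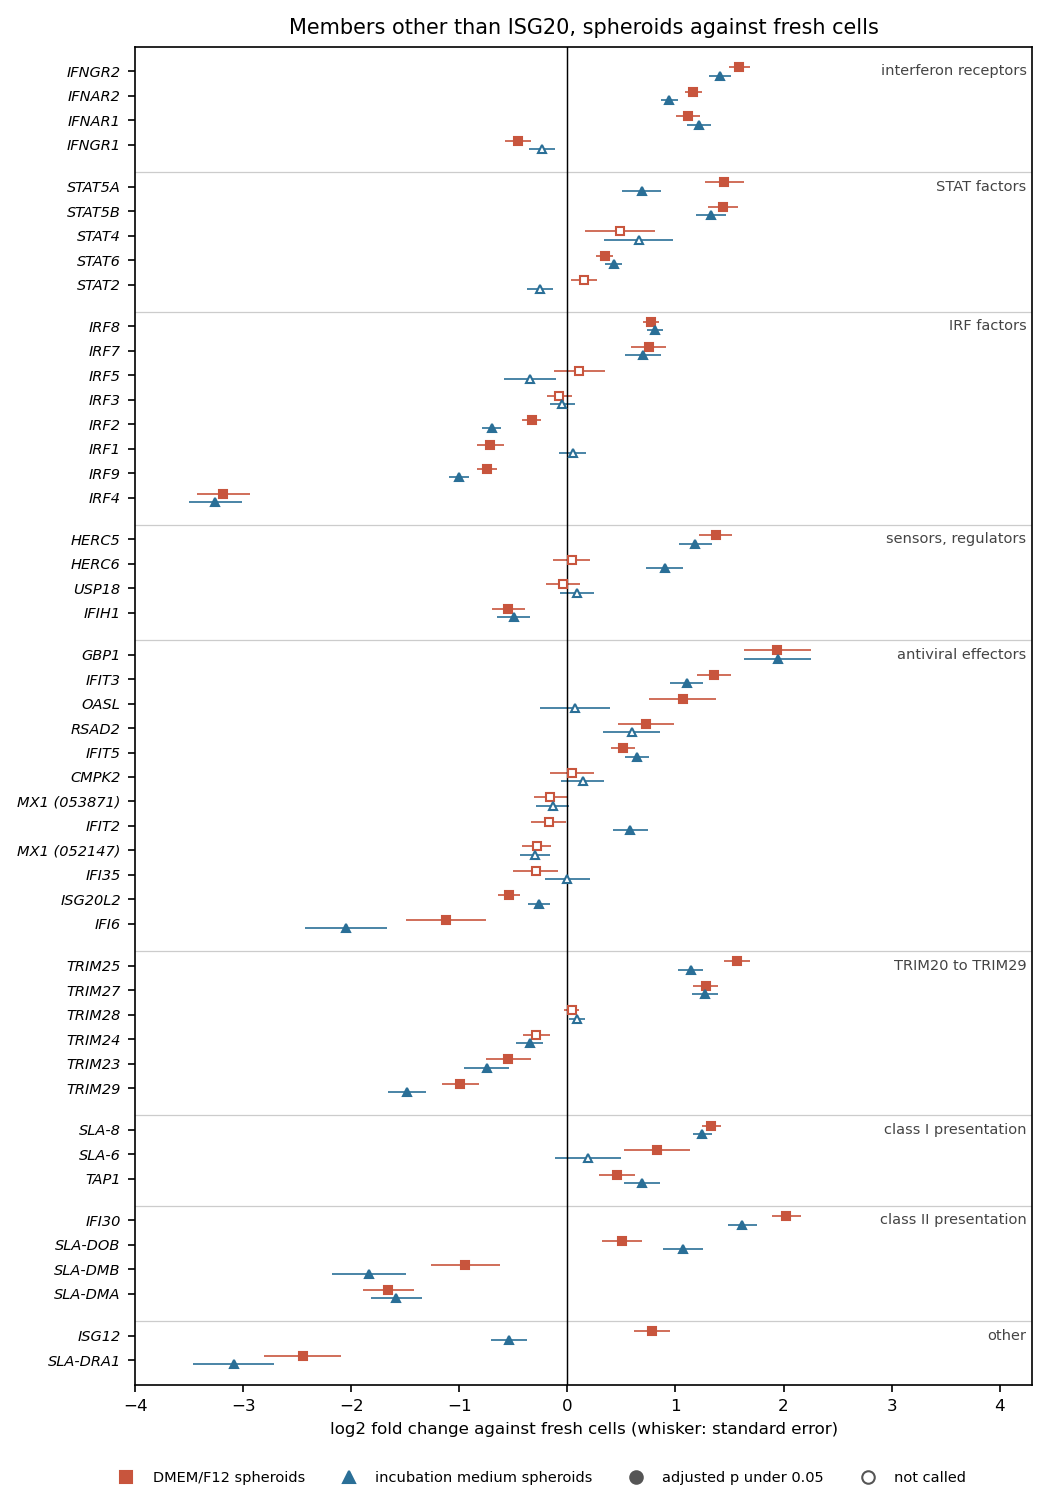
Log2 fold change against fresh cells (x axis) of the members described here other than ISG20, grouped by role, for DMEM/F12 spheroids (squares) and incubation medium spheroids (triangles); whiskers are standard errors and filled symbols have an adjusted p under 0.05. GBP1 and IFI30 lie farthest to the right, IRF4 and SLA-DRA1 farthest to the left, and the 2 MX1 rows are named by the last digits of their identifiers.

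Of the 4 receptor genes, 3 rose in both media, beside 35.1% of all tested genes called higher in DMEM/F12 and 35.8% in incubation medium. IFNAR1 (ENSSSCG00025027985), a chain of the type I interferon receptor, was at 83.02, 79.6, 91.4 and 97.99 CPM in fresh cells. Levels of IFNAR1 were 192, 187, 172 and 212 in DMEM/F12 spheroids and 207, 172, 195 and 246 in incubation medium spheroids (replicates 1 to 4 in each list). All 8 spheroid libraries lay above all fresh libraries. IFNAR1 had a log2 fold change of 1.12 (SE 0.11, adjusted p = 6.32e-07) in DMEM/F12 and 1.221 (SE 0.11, adjusted p = 2.52e-07) in incubation medium. IFNAR2 (ENSSSCG00025027465), the other chain, was at 41.9, 39.1, 40.8 and 44.3 CPM in fresh cells. IFNAR2 was at 99.5, 93.97, 91.03 and 87.9 in DMEM/F12 spheroids and 75.3, 84.1, 75.9 and 84.2 in incubation medium spheroids. Again no spheroid library overlapped the fresh ones. For IFNAR2 the log2 fold change was 1.16 (SE 0.078, adjusted p = 1.17e-08) in DMEM/F12 and 0.94 (SE 0.078, adjusted p = 8.68e-08) in incubation medium. IFNGR2 (ENSSSCG00025028294), the signalling chain for interferon gamma, was at 68.1, 66.00, 53.3 and 64.7 CPM in fresh cells. IFNGR2 stood at 178, 195, 200.1 and 187 in DMEM/F12 spheroids and 149, 158, 171 and 194 in incubation medium spheroids, a 3.02-fold and 2.66-fold higher level without overlap. The fit gave IFNGR2 a log2 fold change of 1.59 (SE 0.10, adjusted p = 6.8e-09) in DMEM/F12 and 1.41 (SE 0.10, adjusted p = 1.98e-08) in incubation medium. IFNGR1, the ligand-binding chain of the same receptor, went the other way in DMEM/F12, from 109.8–161 to 79.5–98.6 CPM (log2 fold change of -0.46, SE 0.12 and adjusted p = 0.00381). In incubation medium it was not called (99.8 to 121 CPM; log2 fold change of -0.24, SE 0.12 and adjusted p = 0.0909), and with the replicate number as a block in the fit it was called lower (log2 fold change -0.23, adjusted p = 0.0443). IFNAR1 had counts that were not whole in 9 of the 12 libraries, meaning that reads were shared with another feature.

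Among the 5 STAT genes described here, 3 were called higher in each medium (60% of them, beside 35.1% and 35.8% of all tested genes) and none lower (beside 35.7% and 35.8%). STAT5A (ENSSSCG00025022813), which carries prolactin and cytokine signals rather than the interferon response itself, was at 21.2, 17.04, 37.8 and 28.03 CPM in fresh cells. Levels of STAT5A were 70.1, 70.9, 61.00 and 81.6 in DMEM/F12 spheroids and 44.4, 38.7, 41.1 and 43.1 in incubation medium spheroids. The incubation medium libraries lay between those of fresh cells and those of DMEM/F12 with no overlap. STAT5A had a log2 fold change of 1.45 (SE 0.18, adjusted p = 5.43e-06) in DMEM/F12 and 0.69 (SE 0.18, adjusted p = 0.00355) in incubation medium. Its close relative STAT5B (ENSSSCG00025022329) was at 10.8, 9.68, 12.7 and 12.7 CPM in fresh cells. STAT5B was at 34.2, 27.6, 30.6 and 32.2 in DMEM/F12 spheroids and 29.5, 22.6, 29.05 and 33.9 in incubation medium spheroids, with both spheroid groups above the fresh cells. For STAT5B the log2 fold change was 1.44 (SE 0.14, adjusted p = 4.15e-07) in DMEM/F12 and 1.32 (SE 0.14, adjusted p = 9.86e-07) in incubation medium. The counts of STAT5A and STAT5B were not whole in 10 libraries each, so how reads were split between such similar genes is uncertain. STAT6, the factor of interleukin-4 signalling, rose by less, from 40.7–46.3 CPM to 51.03–57.8 and 55.8–63.9. STAT6 had a log2 fold change of 0.34 (SE 0.079, adjusted p = 0.00136) in DMEM/F12 and 0.43 (SE 0.079, adjusted p = 0.000222) in incubation medium.

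STAT2 (ENSSSCG00025033358), which acts with IRF9 in the type I interferon response, was not called against fresh cells (29.2 to 39.8 CPM, then 32.02 to 41.4 and 25.5 to 32.2; log2 fold change of 0.15, adjusted p = 0.263, and -0.26, adjusted p = 0.0695). With the replicate number as a block it was called lower in incubation medium (log2 fold change -0.25, adjusted p = 0.0389). STAT4, of T and NK cells, was at 1.12 to 3.13, 2.28 to 3.77 and 2.80 to 4.77 CPM and was not called (adjusted p = 0.193 and 0.0807); with the block it was called higher in incubation medium (log2 fold change 0.68, adjusted p = 0.032).

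The 8 IRF genes described here moved in different directions, with 2 higher and 4 lower in DMEM/F12 and 2 higher and 3 lower in incubation medium. Calls made up 75% and 62.5% of them, beside 70.7% and 71.7% of all tested genes, so both shares were near the background. IRF4 (ENSSSCG00025071920), best known from lymphocytes and other immune cells, was at 24.4, 22.6, 22.4 and 21.8 CPM in fresh cells. IRF4 was at 3.16, 3.60, 1.19 and 1.92 in DMEM/F12 spheroids and 1.79, 3.07, 2.09 and 2.55 in incubation medium spheroids. No spheroid library came near the fresh ones, and the level fell 9.10-fold and 9.59-fold. For IRF4 the log2 fold change was -3.19 (SE 0.24, adjusted p = 4.18e-08) in DMEM/F12 and -3.26 (SE 0.25, adjusted p = 3.78e-08) in incubation medium. IRF9 (ENSSSCG00025076109), the DNA-binding partner of STAT2, was at 179.6, 170.2, 147 and 158 CPM in fresh cells. IRF9 stood at 91.96, 109, 85.2 and 104 in DMEM/F12 spheroids and 82.8, 77.3, 82.8 and 83.6 in incubation medium spheroids, lower in all 8 spheroid libraries. The fit gave IRF9 a log2 fold change of -0.75 (SE 0.091, adjusted p = 4.65e-06) in DMEM/F12 and -1.004 (SE 0.092, adjusted p = 2.5e-07) in incubation medium. IRF2, an antagonist of IRF1, also fell in both media, from 80.6–90.9 CPM to 59.3–75.5 (log2 fold change of -0.33, SE 0.088 and adjusted p = 0.00399) and 48.98–56.02 (log2 fold change of -0.70, SE 0.089 and adjusted p = 6.72e-06). IRF8, another factor best known from immune cells, did the opposite of IRF4: it was at 109, 100.4, 114 and 117 CPM in fresh cells. Levels of IRF8 were 182, 185, 208 and 179 in DMEM/F12 spheroids and 189.7, 198, 194 and 191 in incubation medium spheroids, with no overlap. IRF8 had a log2 fold change of 0.78 (SE 0.075, adjusted p = 4.34e-07) in DMEM/F12 and 0.81 (SE 0.075, adjusted p = 2.7e-07) in incubation medium. IRF7, the amplifier of type I interferon production, rose from 19.4–28.2 CPM to 30.3–48.6 (log2 fold change of 0.75, SE 0.16 and adjusted p = 0.000894) and 33.5–44.8 (log2 fold change of 0.70, SE 0.16 and adjusted p = 0.00158).

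IRF1 (ENSSSCG00025062672), an early target of interferon signalling, was at 49.1, 55.1, 56.1 and 70.9 CPM in fresh cells. IRF1 was at 31.1, 40.3, 30.8 and 38.4 in DMEM/F12 spheroids and 54.5, 63.4, 64.7 and 56.02 in incubation medium spheroids. All DMEM/F12 libraries lay below the fresh ones (log2 fold change of -0.71, SE 0.12 and adjusted p = 0.000136), and the incubation medium libraries overlapped the fresh ones (log2 fold change of 0.047, SE 0.12 and adjusted p = 0.742); the media also differed, as given below. IRF3, which is switched on by phosphorylation, was at 50.2 to 63.01, 46.9 to 58.5 and 44.7 to 63.7 CPM, and IRF5 at 2.94 to 4.53, 2.88 to 4.76 and 2.03 to 3.47 CPM, with no call.

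Of the sensors and regulators, HERC5 (ENSSSCG00025075261), a ligase that attaches ISG15 to proteins, was at 59.5, 46.8, 38.5 and 38.6 CPM in fresh cells. Levels of HERC5 were 111, 139, 112 and 113 in DMEM/F12 spheroids and 107, 118, 112 and 79.8 in incubation medium spheroids, above the fresh cells in all spheroid libraries. HERC5 had a log2 fold change of 1.37 (SE 0.15, adjusted p = 1.79e-06) in DMEM/F12 and 1.18 (SE 0.15, adjusted p = 7.41e-06) in incubation medium. HERC6, of the same family, was called in incubation medium and not in DMEM/F12, at 22.9 to 30.98 CPM in fresh cells, 21.1 to 32.2 in DMEM/F12 spheroids (log2 fold change of 0.037, SE 0.17 and adjusted p = 0.855) and 34.8 to 58.6 in incubation medium spheroids (log2 fold change of 0.90, SE 0.17 and adjusted p = 0.000273). IFIH1, the RNA sensor MDA5, fell from 19.4–25.1 CPM to 12.4–18.4 (log2 fold change of -0.55, SE 0.15 and adjusted p = 0.00513) and 13.4–17.8 (log2 fold change of -0.50, SE 0.15 and adjusted p = 0.00929). USP18, which removes ISG15 and damps signalling at IFNAR2, was at 53.98 to 69.8, 40.4 to 75.5 and 57.4 to 73.1 CPM and was not called (adjusted p = 0.823 and 0.629).

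ISG20 (ENSSSCG00025029433), an exonuclease that degrades viral RNA, showed the largest change of the members. It was at 0.348, 0.359, 0.561 and 0.588 CPM in fresh cells. ISG20 was at 29.4, 42.2, 78.3 and 45.7 in DMEM/F12 spheroids and 30.5, 52.3, 104 and 40.6 in incubation medium spheroids. Every fresh library held at most 3 counts, which is as much as a count of 0 would allow, so only a bound can be given: at least 88.6-fold higher in DMEM/F12 and at least 103-fold higher in incubation medium, computed against 3 counts per library (adjusted p = 3.79e-07 and 2.41e-07). In both media replicate 3 was the highest library and replicate 1 the lowest. Its counts were whole in all 12 libraries. ISG20L2, a nuclear exonuclease named for its similarity, fell from 43.01–55.3 CPM to 31.2–37.8 in DMEM/F12 (log2 fold change of -0.54, SE 0.10 and adjusted p = 0.000306) and to 38.02–47.02 in incubation medium (log2 fold change of -0.26, SE 0.10 and adjusted p = 0.0327). The second call was lost without fresh replicate 1 or 2 or incubation medium replicate 1, 2 or 4 (log2 fold change -0.25 to -0.19, adjusted p 0.0656 to 0.121), and without the filter on low counts, with only whole-count rows or with DESeq2 (-0.24 to -0.17, adjusted p 0.077 to 0.152).

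The other antiviral effectors went in both directions: with ISG20 and ISG12 included, 7 of 14 tested rows were higher and 2 lower in DMEM/F12, and 5 higher and 3 lower in incubation medium. The background over all genes was 35.1% higher and 35.7% lower in DMEM/F12 and 35.8% each way in incubation medium, the last near the share of these rows that were higher there. GBP1 (ENSSSCG00025040795), a GTPase that attacks intracellular pathogens, was at 7.83, 10.9, 4.67 and 12.3 CPM in fresh cells. Levels of GBP1 were 16.3, 44.6, 37.6 and 38.9 in DMEM/F12 spheroids and 26.7, 42.4, 32.00 and 36.7 in incubation medium spheroids, with no overlap with fresh cells. GBP1 had a log2 fold change of 1.94 (SE 0.31, adjusted p = 6.32e-05) in DMEM/F12 and 1.94 (SE 0.31, adjusted p = 6.22e-05) in incubation medium. IFIT3 (ENSSSCG00025004171), part of a complex that binds viral RNA, rose in both media and was at 68.9, 64.6, 51.8 and 70.7 CPM in fresh cells. IFIT3 was at 134, 194, 134 and 193 in DMEM/F12 spheroids and 118, 162, 149 and 121 in incubation medium spheroids, without overlap between fresh cells and either medium. For IFIT3 the log2 fold change was 1.36 (SE 0.16, adjusted p = 2.76e-06) in DMEM/F12 and 1.10 (SE 0.16, adjusted p = 2.02e-05) in incubation medium. IFIT5, a relative that binds RNA ends, also rose in both, from 47.3–66.2 CPM to 71.9–92.3 (log2 fold change of 0.51, SE 0.11 and adjusted p = 0.000867) and 86.1–103 (log2 fold change of 0.65, SE 0.11 and adjusted p = 0.000118). IFIT2 was called in incubation medium, at 29.6 to 38.7 CPM in fresh cells, 26.03 to 33.8 in DMEM/F12 spheroids (log2 fold change of -0.17, SE 0.16 and adjusted p = 0.35) and 36.3 to 63.3 in incubation medium spheroids (log2 fold change of 0.58, SE 0.16 and adjusted p = 0.00455).

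IFI6 (ENSSSCG00025030656), a small antiviral membrane protein, and ISG12 (ENSSSCG00025017556), a small protein of the IFI27 family, each fell in at least 1 medium. IFI6 was at 2439.8, 1932, 1504 and 2473 CPM in fresh cells. IFI6 stood at 1045, 842, 444 and 1491 in DMEM/F12 spheroids and 417, 349.9, 294 and 954 in incubation medium spheroids. It fell 2.18-fold in DMEM/F12 and 4.15-fold in incubation medium, in both without overlap with fresh cells. The fit gave IFI6 a log2 fold change of -1.13 (SE 0.37, adjusted p = 0.0142) in DMEM/F12 and -2.05 (SE 0.38, adjusted p = 0.000232) in incubation medium. ISG12 was at 1270.4, 1062, 1042 and 1172 CPM in fresh cells. Levels of ISG12 were 1865, 2135, 1485 and 2336 in DMEM/F12 spheroids and 606, 764, 691 and 1061 in incubation medium spheroids. It rose in DMEM/F12, with all libraries above the fresh ones (log2 fold change of 0.78, SE 0.16 and adjusted p = 0.000673), and fell in incubation medium, where replicate 4 lay within the fresh range (log2 fold change of -0.54, SE 0.16 and adjusted p = 0.00869).

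OASL, a relative of the oligoadenylate synthetases that boosts RNA sensing, was at 9.92, 7.89, 8.79 and 7.06 CPM in fresh cells. OASL stood at 9.61, 26.3, 12.2 and 22.5 in DMEM/F12 spheroids and 5.73, 12.01, 9.97 and 7.79 in incubation medium spheroids; it was called in DMEM/F12 although replicate 1 lay in the fresh range (log2 fold change of 1.07, SE 0.31 and adjusted p = 0.00639), and not in incubation medium (log2 fold change of 0.071, SE 0.32 and adjusted p = 0.853). RSAD2, the antiviral enzyme viperin, was at 9.05, 10.04, 10.1 and 9.02 CPM in fresh cells. RSAD2 was at 12.4, 22.2, 12.97 and 15.6 in DMEM/F12 spheroids and 10.3, 22.2, 15.9 and 9.54 in incubation medium spheroids. It was called in DMEM/F12 (log2 fold change of 0.73, SE 0.26 and adjusted p = 0.0225), a call lost without fresh replicate 4 or DMEM/F12 replicate 2 (log2 fold change 0.53 to 0.70, adjusted p 0.05002 to 0.0801). In incubation medium it was not called (log2 fold change of 0.60, SE 0.26 and adjusted p = 0.0557), and with the replicate block it was (log2 fold change 0.56, adjusted p = 0.0127). MX1, a GTPase that traps viral particles, showed no call on its row of higher CPM (ENSSSCG00025053871): 213, 176, 147 and 169 CPM in fresh cells. Levels of MX1 were 136, 187, 140.0 and 168 in DMEM/F12 spheroids and 131, 187, 189.8 and 133 in incubation medium spheroids (adjusted p = 0.359 and 0.434). The other MX1 row (ENSSSCG00025052147) was at 67.1 to 83.4, 47.8 to 78.3 and 54.4 to 71.02 CPM, not called (log2 fold change of -0.29, adjusted p = 0.0771, and -0.30, adjusted p = 0.0642), and called lower in both media with the replicate number as a block (log2 fold change -0.30, adjusted p = 0.0338, and -0.31, adjusted p = 0.0318). Since 2 rows share the symbol and both hold counts that are not whole, the split of reads between them is uncertain. CMPK2, a mitochondrial nucleotide kinase, and IFI35 were not called in either medium (adjusted p = 0.858 and 0.545 for CMPK2, 0.221 and 0.998 for IFI35).

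**Figure D2:**
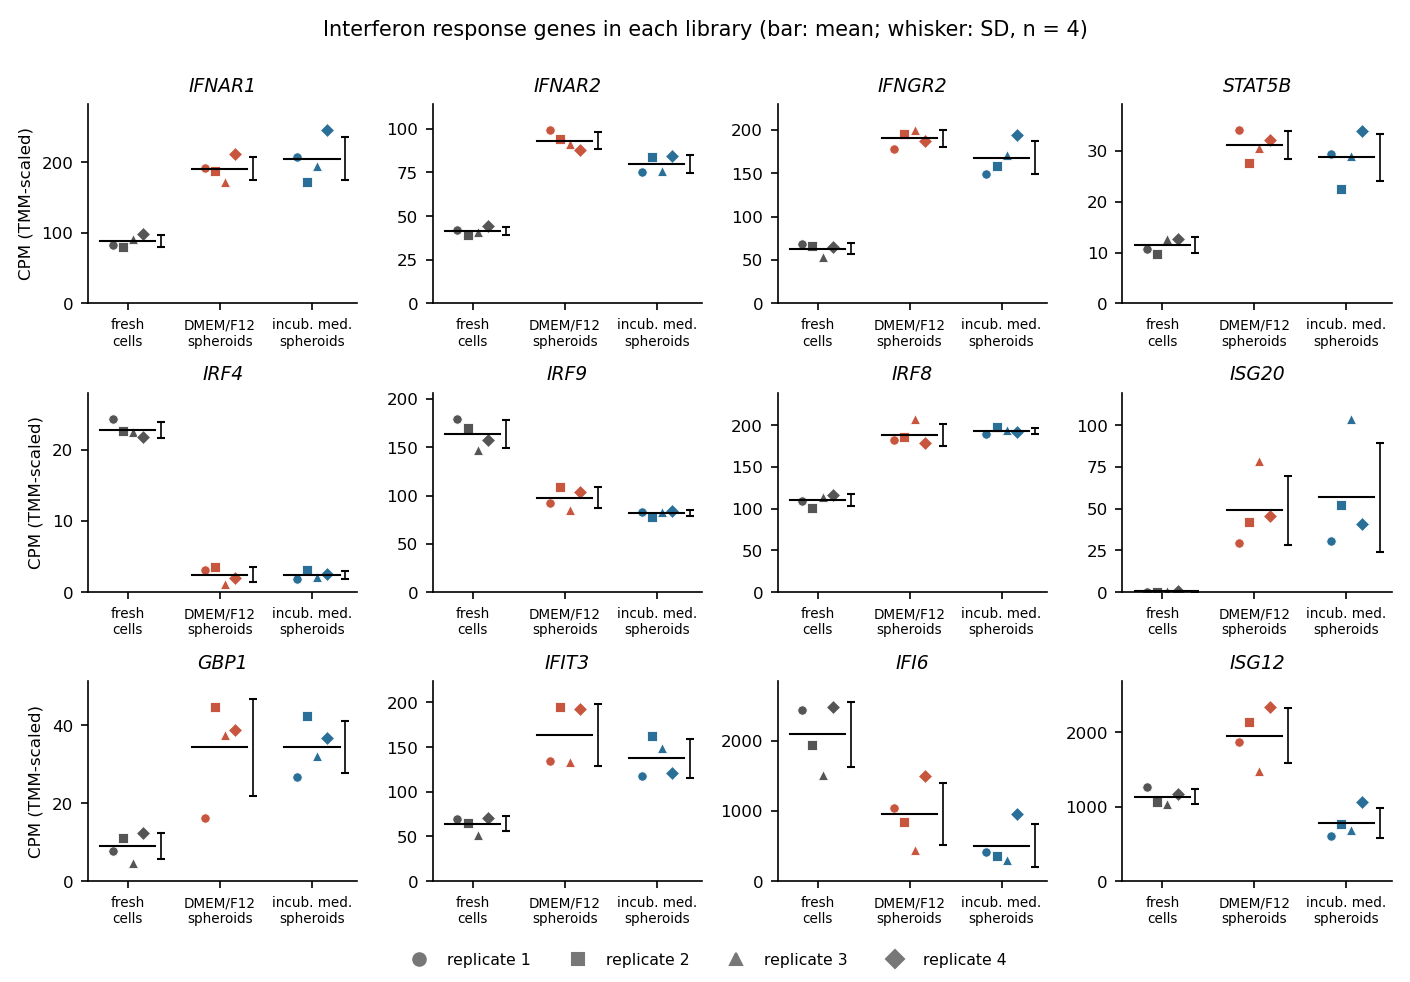
CPM on a linear axis from 0 for 12 members in each of the 12 libraries; the symbol gives the replicate number, the line the group mean and the whisker the SD (n = 4). The receptor genes IFNAR1, IFNAR2 and IFNGR2, with STAT5B, IRF8, ISG20, GBP1 and IFIT3, were higher in all 8 spheroid libraries than in the 4 fresh ones, and IRF4, IRF9 and IFI6 lower. The receptor gene IFNGR1, called lower in DMEM/F12, is not drawn.

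Genes of the TRIM range do not form 1 functional group. TRIM25 (ENSSSCG00025017511), the ubiquitin ligase that activates RNA sensing by RIG-I, was at 28.7, 28.3, 31.04 and 31.6 CPM in fresh cells. TRIM25 stood at 70.7, 94.4, 106 and 83.9 in DMEM/F12 spheroids and 58.8, 73.5, 66.5 and 64.7 in incubation medium spheroids, above the fresh cells in every spheroid library. The fit gave TRIM25 a log2 fold change of 1.57 (SE 0.12, adjusted p = 4.04e-08) in DMEM/F12 and 1.14 (SE 0.12, adjusted p = 9.85e-07) in incubation medium. TRIM27, a ligase of nuclear and endosomal proteins, was at 7.14, 9.33, 8.23 and 9.02 CPM in fresh cells. Levels of TRIM27 were 19.9, 22.5, 20.2 and 19.1 in DMEM/F12 spheroids and 19.9, 20.6, 22.03 and 18.9 in incubation medium spheroids, also without overlap. TRIM27 had a log2 fold change of 1.28 (SE 0.12, adjusted p = 2.39e-07) in DMEM/F12 and 1.27 (SE 0.12, adjusted p = 2.51e-07) in incubation medium. TRIM29, an epithelial regulator of innate signalling, fell in both media and was at 70.5, 89.1, 68.8 and 104 CPM in fresh cells. TRIM29 was at 39.7, 40.9, 41.5 and 45.1 in DMEM/F12 spheroids and 24.3, 27.8, 24.1 and 42.4 in incubation medium spheroids, without overlap between fresh cells and either medium. For TRIM29 the log2 fold change was -0.99 (SE 0.17, adjusted p = 0.00012) in DMEM/F12 and -1.49 (SE 0.17, adjusted p = 3.02e-06) in incubation medium. TRIM28, a corepressor of transcription, had nearly the same level in all libraries, from 203 to 252 CPM (log2 fold change of 0.042, SE 0.070, and 0.088, SE 0.070), and with only whole-count rows it was called higher in incubation medium (0.18, adjusted p = 0.042, with 0.042 to 0.478 over all alternatives). TRIM24, a nuclear receptor cofactor, was at 21.5 to 34.5, 21.4 to 23.5 and 19.6 to 24.2 CPM and was called lower in incubation medium (log2 fold change of -0.35, SE 0.13 and adjusted p = 0.0236), except without fresh replicate 1 or incubation medium replicate 2 or 4 (log2 fold change -0.30 to -0.22, adjusted p 0.0695 to 0.112) or without the filter (-0.29, adjusted p = 0.0825). In DMEM/F12 it was not called (-0.29, adjusted p = 0.0555), and with the replicate block it was (log2 fold change -0.28, adjusted p = 0.0242). TRIM23 was at 6.73 to 10.6, 4.44 to 7.67 and 4.06 to 5.25 CPM and fell in both media. TRIM23 had a log2 fold change of -0.55 (SE 0.21, adjusted p = 0.0284) in DMEM/F12 and -0.75 (SE 0.21, adjusted p = 0.00542) in incubation medium. Its DMEM/F12 call was lost without fresh replicate 4 or DMEM/F12 replicate 1, 2 or 4 (-0.50 to -0.39, adjusted p 0.0693 to 0.113) and without the filter, with only whole-count rows or with DESeq2 (-0.53 to -0.47, adjusted p 0.052 to 0.0754).

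Class I molecules display peptides from inside the cell, and 3 of their genes had a row. SLA-8 (ENSSSCG00025077760), a nonclassical class I gene, was at 24.5, 22.96, 23.2 and 27.2 CPM in fresh cells. SLA-8 was at 60.1, 69.3, 56.4 and 60.8 in DMEM/F12 spheroids and 57.03, 56.7, 58.6 and 60.5 in incubation medium spheroids. Its spheroid libraries were 2.52-fold and 2.38-fold above the fresh ones with no overlap. For SLA-8 the log2 fold change was 1.33 (SE 0.088, adjusted p = 1.06e-08) in DMEM/F12 and 1.25 (SE 0.088, adjusted p = 1.92e-08) in incubation medium. SLA-6 (ENSSSCG00025077759), another nonclassical gene, spread much more, at 123, 197, 85.3 and 304 CPM in fresh cells. SLA-6 stood at 256, 381, 262 and 363 in DMEM/F12 spheroids and 160.1, 217, 162 and 269 in incubation medium spheroids. The fresh libraries alone spanned 3.56-fold, and the DMEM/F12 call (log2 fold change of 0.83, SE 0.31 and adjusted p = 0.0254) was lost without fresh replicate 1 or 3 or DMEM/F12 replicate 2 or 4 (log2 fold change 0.60 to 0.77, adjusted p 0.0549 to 0.071). In incubation medium SLA-6 was not called (log2 fold change of 0.19, SE 0.31 and adjusted p = 0.592). TAP1 (ENSSSCG00025070869), a subunit of the peptide transporter, was at 59.00, 53.3, 61.1 and 90.7 CPM in fresh cells. TAP1 was at 74.6, 100.4, 82.03 and 105 in DMEM/F12 spheroids and 86.7, 123, 97.8 and 118 in incubation medium spheroids, with fresh replicate 4 inside the range of both spheroid groups. For TAP1 the log2 fold change was 0.46 (SE 0.17, adjusted p = 0.0251) in DMEM/F12 and 0.69 (SE 0.17, adjusted p = 0.00206) in incubation medium. The DMEM/F12 call of TAP1 was lost without fresh replicate 1, 2 or 3 or DMEM/F12 replicate 2 or 4 (0.37 to 0.43, adjusted p 0.0577 to 0.0776). Counts of SLA-6 and SLA-8 were not whole in 10 and 9 libraries, so reads of this family of similar genes were divided among rows, and rows for the classical genes were not analysed here.

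Class II molecules display peptides taken up from outside the cell. Of the 5 class II members, SLA-DRA1, SLA-DMA and SLA-DMB were lower in both media and SLA-DOB and IFI30 higher. Thus 60% were called lower, beside 35.7% of all tested genes in DMEM/F12 and 35.8% in incubation medium. The 40% called higher were near the background of 35.1% and 35.8%. SLA-DRA1 (ENSSSCG00025012171), the alpha chain of the DR molecule, was at 95.9, 114, 71.2 and 131 CPM in fresh cells. SLA-DRA1 stood at 18.00, 32.2, 10.7 and 14.2 in DMEM/F12 spheroids and 9.31, 23.6, 7.75 and 7.93 in incubation medium spheroids. The level fell 5.46-fold and 8.52-fold with no overlap, and in both media replicate 2 was the highest. The fit gave SLA-DRA1 a log2 fold change of -2.45 (SE 0.36, adjusted p = 2.44e-05) in DMEM/F12 and -3.09 (SE 0.37, adjusted p = 3.94e-06) in incubation medium. SLA-DMA (ENSSSCG00025070163), a chain of the DM molecule that loads peptides onto class II, was at 29.9, 56.7, 38.9 and 46.4 CPM in fresh cells. Levels of SLA-DMA were 12.7, 18.6, 12.97 and 10.1 in DMEM/F12 spheroids and 10.5, 20.96, 13.2 and 12.8 in incubation medium spheroids, again without overlap. SLA-DMA had a log2 fold change of -1.66 (SE 0.24, adjusted p = 2.16e-05) in DMEM/F12 and -1.59 (SE 0.24, adjusted p = 3.22e-05) in incubation medium. SLA-DMB (ENSSSCG00025070484), its other chain, was at 15.3, 11.8, 12.5 and 15.5 CPM in fresh cells. SLA-DMB was at 8.51, 11.04, 3.84 and 5.04 in DMEM/F12 spheroids and 2.39, 6.81, 3.32 and 2.96 in incubation medium spheroids, without overlap with fresh cells. For SLA-DMB the log2 fold change was -0.95 (SE 0.32, adjusted p = 0.0161) in DMEM/F12 and -1.84 (SE 0.34, adjusted p = 0.00023) in incubation medium. Its DMEM/F12 call was lost without DMEM/F12 replicate 4 (log2 fold change -0.80, adjusted p = 0.0528, with 0.00272 to 0.0528 over all alternatives).

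SLA-DOB (ENSSSCG00025072363), a chain of the DO molecule that restrains DM, was at 19.8, 27.1, 24.5 and 22.7 CPM in fresh cells. SLA-DOB stood at 24.3, 41.5, 33.3 and 34.3 in DMEM/F12 spheroids and 34.4, 60.6, 54.9 and 48.1 in incubation medium spheroids. Every incubation medium library lay above the fresh ones (log2 fold change of 1.07, SE 0.18 and adjusted p = 0.000117), whereas DMEM/F12 replicate 1 lay within the fresh range (log2 fold change of 0.50, SE 0.19 and adjusted p = 0.0255). The DMEM/F12 call was lost without fresh replicate 1 or 4 or DMEM/F12 replicate 2 (log2 fold change 0.40 to 0.49, adjusted p 0.054 to 0.078). IFI30 (ENSSSCG00025040458), a lysosomal reductase that opens disulphide bonds of antigens and is induced by interferon gamma, was at 25.9, 25.1, 20.6 and 32.1 CPM in fresh cells. IFI30 was at 110.1, 119, 102 and 90.8 in DMEM/F12 spheroids and 68.00, 86.1, 83.1 and 81.5 in incubation medium spheroids, 4.08-fold and 3.07-fold above fresh cells without overlap. For IFI30 the log2 fold change was 2.03 (SE 0.13, adjusted p = 9.01e-09) in DMEM/F12 and 1.62 (SE 0.13, adjusted p = 7.29e-08) in incubation medium.

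Leukocyte markers went in both directions where class II genes and IRF4 fell. Of 19 leukocyte symbols 11 had a row. Without CD79A, whose row was at 409 to 598 CPM and held fractional counts in 11 libraries, and which was called higher in incubation medium (log2 fold change of 0.24, adjusted p = 0.0146), the markers summed to 52.7 to 75.9 CPM in fresh cells, 35.9 to 72.6 in DMEM/F12 spheroids and 15.4 to 45.3 in incubation medium spheroids, so the DMEM/F12 range overlapped the fresh one. Of the 8 tested, 2 rose and 3 fell in DMEM/F12, beside 35.1% and 35.7% of all tested genes. The share that fell there was near the background. In incubation medium 5 of the 8 fell, beside 35.8% of all tested genes. PTPRC, the pan-leukocyte marker CD45, was at 5.74 to 8.53, 1.44 to 3.37 and 0.269 to 2.14 CPM (log2 fold change of -1.46, adjusted p = 0.00151, and -2.52, adjusted p = 3.19e-05), and TYROBP, of myeloid and NK cells, at 9.16 to 16.9, 3.12 to 8.25 and 1.61 to 6.54 CPM (log2 fold change of -1.30, adjusted p = 0.00714, and -2.14, adjusted p = 0.000292). AIF1, of macrophages, also fell in both media, and CD53 and FCER1G in incubation medium. CORO1A and CXCR4 were the 2 that rose in DMEM/F12 (4.07-fold and 3.49-fold). Which cells made any of these markers, rising or falling, was not tested. The T cell gene CD3E was at 0.748 to 2.74 CPM in fresh cells and at 0 in 2 DMEM/F12 and 3 incubation medium libraries. Replicate 2, the highest for SLA-DRA1 in both media, was also the highest spheroid library of its medium for PTPRC, TYROBP, AIF1, CD53, FCER1G and CORO1A. It was not for CXCR4, highest in DMEM/F12 replicate 1 and incubation medium replicate 3, for CD79A, highest in replicates 3 and 4, or for CD14 in incubation medium, highest in replicate 1. The part of leukocytes in the levels of SLA-DRA1, SLA-DMA, SLA-DMB and IRF4 was not tested.

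**Figure D3:**
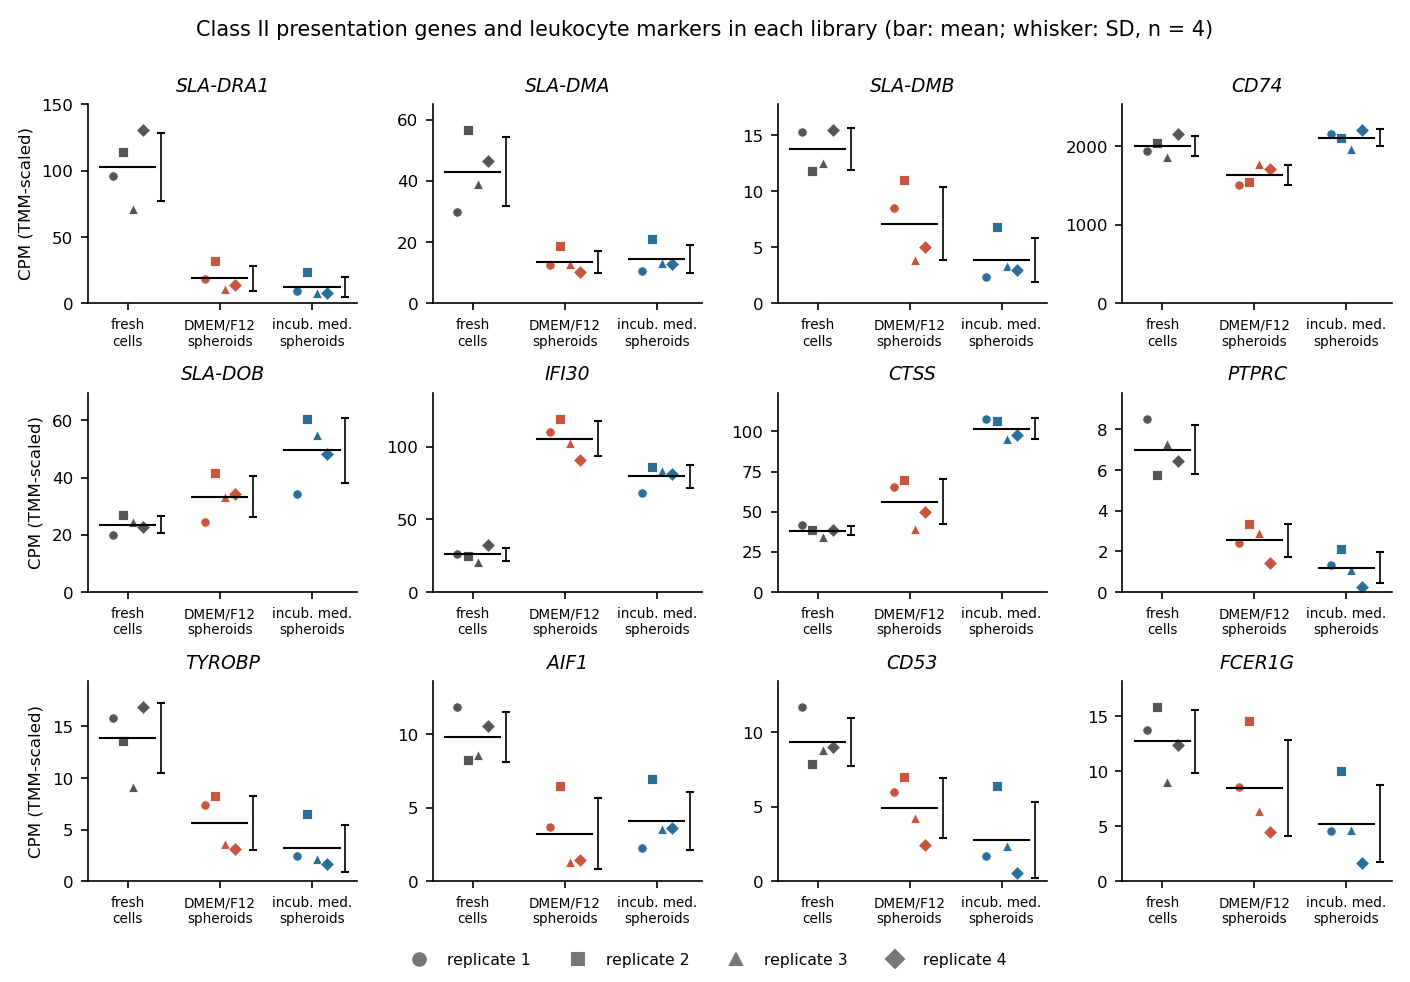
CPM on a linear axis from 0 of 5 class II members, the class II pathway genes CD74 and CTSS and 5 leukocyte markers in the 12 libraries (symbols as replicate numbers, line as mean, whisker as SD, n = 4). SLA-DRA1, SLA-DMA and SLA-DMB are lower in all 8 spheroid libraries than in the 4 fresh ones, as are PTPRC, TYROBP and AIF1, IFI30 is higher in all 8, and SLA-DOB and CTSS are higher in all but 1 DMEM/F12 library each, which lies in the fresh range. The 5 leukocyte markers drawn are those called lower in at least 1 medium. Left out are CORO1A and CXCR4, called higher in DMEM/F12, CD79A, called higher in incubation medium, and CD14, not called.

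Incubation medium spheroids were compared with DMEM/F12 spheroids to ask which of these genes depended on the medium. Called members numbered 4 higher and 9 lower in incubation medium, 25.5% of the 51, beside 25.0% of all tested genes. By direction, 7.84% were higher, beside 12.7% of all genes, and 17.6% lower, beside 12.3%. Calls of at least 2-fold numbered 0 higher and 2 lower of the 51. Over all 14070 tested genes they numbered 290 higher (2.06%) and 476 lower (3.38%). With library totals as the only scaling, the split was 3 higher and 12 lower. With the replicate number as a block, 5 were higher and 15 lower, 20 in all. The members' median log2 fold change was -0.05, against -0.00 over all tested genes.

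Higher in incubation medium were IRF1 (log2 fold change of 0.76, SE 0.12 and adjusted p = 0.000524), HERC6 (log2 fold change of 0.86, SE 0.17 and adjusted p = 0.00179), IFIT2 (log2 fold change of 0.76, SE 0.16 and adjusted p = 0.00294) and SLA-DOB (log2 fold change of 0.57, SE 0.18 and adjusted p = 0.0292). The first 3 showed no overlap between the media. The SLA-DOB call was lost without DMEM/F12 replicate 1, 3 or 4 or incubation medium replicate 2 or 3 (log2 fold change 0.44 to 0.58, adjusted p 0.0556 to 0.0963) and with library totals (0.47, adjusted p = 0.0672).

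ISG12 was lower in incubation medium, 2.50-fold (log2 fold change of -1.32, SE 0.17 and adjusted p = 7.92e-05), and did not overlap: the highest incubation medium library, replicate 4, lay under the lowest DMEM/F12 library, replicate 3. STAT5A (log2 fold change of -0.76, SE 0.17 and adjusted p = 0.00483) and IRF2 (log2 fold change of -0.37, SE 0.089 and adjusted p = 0.00722) were lower without overlap, and TRIM25 (log2 fold change of -0.43, SE 0.11 and adjusted p = 0.0119) with overlap. STAT2 was lower (log2 fold change of -0.41, SE 0.12 and adjusted p = 0.0201), a call lost without DMEM/F12 replicate 2 or 4 or incubation medium replicate 2 or 3 (-0.39 to -0.35, adjusted p 0.0551 to 0.0653). OASL, IFI30 and IFNAR2 were called lower too. OASL (log2 fold change of -0.995, SE 0.30 and adjusted p = 0.0236) was lost without DMEM/F12 replicate 2 or 4 or incubation medium replicate 1 or 4 (-0.94 to -0.74, adjusted p 0.0555 to 0.0896). IFI30 (log2 fold change of -0.41, SE 0.12 and adjusted p = 0.0229) was lost without DMEM/F12 replicate 1 or 2 or incubation medium replicate 1 (-0.39 to -0.34, adjusted p 0.0535 to 0.0763). IFNAR2 (log2 fold change of -0.22, SE 0.074 and adjusted p = 0.0417) was lost without DMEM/F12 or incubation medium replicate 1, 2 or 3 (-0.25 to -0.19, adjusted p 0.0539 to 0.119), without the filter and in a fit of the 2 groups alone (-0.23 to -0.22, adjusted p 0.0532 to 0.0891).

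A further 7 members missed the threshold between the media and passed it with the replicate number as a block. IFI6 (-0.92, adjusted p = 0.0846 without the block) was at -0.95, adjusted p = 0.00057, with it. It was also called without DMEM/F12 replicate 3 or incubation medium replicate 4 (-1.43 to -1.16, adjusted p 0.00526 to 0.0274) and without the filter on low counts, and over all alternatives its adjusted p ran from 0.00057 to 0.265. TRIM29 (-0.50, adjusted p = 0.051) reached adjusted p = 0.00195 with the block, was called under 8 settings in all (-0.59 to -0.50) and without incubation medium replicate 4 (-0.72, adjusted p = 0.00255), and had an adjusted p of up to 0.139. SLA-6 (-0.64, adjusted p = 0.143) reached -0.66, adjusted p = 0.0042, and was also called in a fit of the 2 groups alone (-0.64, adjusted p = 0.0288), with an adjusted p of up to 0.286 elsewhere. SLA-DMB (-0.89, adjusted p = 0.0758) reached -0.88, adjusted p = 0.0333, and was called without DMEM/F12 replicate 3 or incubation medium replicate 2 (-1.30 to -1.09, adjusted p 0.0143 to 0.0302, and up to 0.252 elsewhere). SLA-DRA1 (-0.64, adjusted p = 0.249) reached -0.64, adjusted p = 0.0439; without incubation medium replicate 2, its highest library of that group, it was at -1.17, adjusted p = 0.0272, and elsewhere the adjusted p rose to 0.692. IRF9 (-0.26, adjusted p = 0.0535) was called with the block, with library totals, with a filter at a mean of 10 counts and with DESeq2 (-0.35 to -0.25, adjusted p 0.0117 to 0.0465), and without DMEM/F12 replicate 3 (-0.32, adjusted p = 0.0233). ISG20L2 (0.28, adjusted p = 0.0629) reached 0.28, adjusted p = 0.0448, and is the 1 of these 7 that was higher in incubation medium. IFNGR2 was called lower in incubation medium with library totals (-0.27, adjusted p = 0.0328), and not otherwise (-0.18, adjusted p = 0.194).

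Genes that act with the members, from lists of 71 symbols, had 48 rows and 44 that were tested. In DMEM/F12 spheroids 14 were called higher and 19 lower than in fresh cells, in incubation medium spheroids 14 higher and 15 lower, and between the media 12 higher and 1 lower in incubation medium. Calls in either direction made up 75%, 65.9% and 29.5% of the 44, beside 70.7%, 71.7% and 25.0% of all tested genes. These shares were near the background in each comparison. By direction, the split between the media was not: 27.3% were higher in incubation medium, beside 12.7% of all tested genes, and 2.27% lower, beside 12.3%. In DMEM/F12 against fresh cells 31.8% were higher, beside 35.1%, and 43.2% lower, beside 35.7%. In incubation medium against fresh cells 31.8% were higher and 34.1% lower, beside 35.8% each way. Among the 44 were the 5 genes of the immunoproteasome and its PA28 activator, which cut proteins into peptides for class I. All 5 were called higher in incubation medium than in DMEM/F12 spheroids, 100% of the list's tested rows, beside 12.7% of all tested genes. The peptide trimming genes on the same list, ERAP1, ERAP2 and LNPEP, had no row under these symbols. PSMB10, a catalytic subunit, was at 21.2, 20.4, 26.9 and 25.7 CPM in fresh cells. PSMB10 stood at 46.7, 69.00, 51.6 and 67.2 in DMEM/F12 spheroids and 79.6, 115, 115 and 95.2 in incubation medium spheroids. It rose in both media and differed between them without overlap. PSMB10 had log2 fold changes of 1.32 (SE 0.16, adjusted p = 4.37e-06) in DMEM/F12 against fresh cells, 2.1004 (SE 0.16, adjusted p = 4.1e-08) in incubation medium and 0.78 (SE 0.15, adjusted p = 0.00149) between the media. PSMB9, another catalytic subunit, was at 15.1, 21.9, 25.2 and 26.3 CPM in fresh cells. PSMB9 was at 12.5, 35.8, 15.7 and 23.2 in DMEM/F12 spheroids and 43.2, 93.2, 81.4 and 62.1 in incubation medium spheroids; it was not called in DMEM/F12 (log2 fold change of -0.012, SE 0.31 and adjusted p = 0.974) and rose in incubation medium (log2 fold change of 1.66, SE 0.30 and adjusted p = 0.000196; between media, log2 fold change of 1.67, SE 0.29 and adjusted p = 0.00094).

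PSMB8, the last catalytic subunit, was at 14.1 to 25.5, 18.4 to 34.5 and 40.3 to 61.00 CPM (log2 fold change of 1.49, SE 0.23 and adjusted p = 4.39e-05; between media, log2 fold change of 0.87, SE 0.22 and adjusted p = 0.00886). Its DMEM/F12 call (log2 fold change of 0.62, SE 0.23 and adjusted p = 0.0293) was lost without fresh replicate 1, 2 or 3 or DMEM/F12 replicate 2 or 4 (0.50 to 0.58, adjusted p 0.0662 to 0.0857). The PA28 gene PSME2 was at 78.1, 86.8, 85.8 and 80.2 CPM in fresh cells. Levels of PSME2 were 108, 164, 145 and 157 in DMEM/F12 spheroids and 168, 242, 227 and 224 in incubation medium spheroids. It rose in both media, further in incubation medium. PSME2 had log2 fold changes of 0.80 (SE 0.13, adjusted p = 9.23e-05) in DMEM/F12 against fresh cells, 1.38 (SE 0.13, adjusted p = 4.49e-07) in incubation medium and 0.58 (SE 0.13, adjusted p = 0.00469) between the media. PSME1, its partner, was at 308, 359, 377 and 402 CPM in fresh cells. PSME1 stood at 205, 250.4, 214 and 271 in DMEM/F12 spheroids and 335, 382, 336 and 361 in incubation medium spheroids: lower than fresh cells in DMEM/F12 (log2 fold change of -0.62, SE 0.11 and adjusted p = 0.000104), not called in incubation medium (log2 fold change of -0.031, SE 0.10 and adjusted p = 0.801) and higher there than in DMEM/F12 (log2 fold change of 0.59, SE 0.10 and adjusted p = 0.00102).

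**Figure D4:**
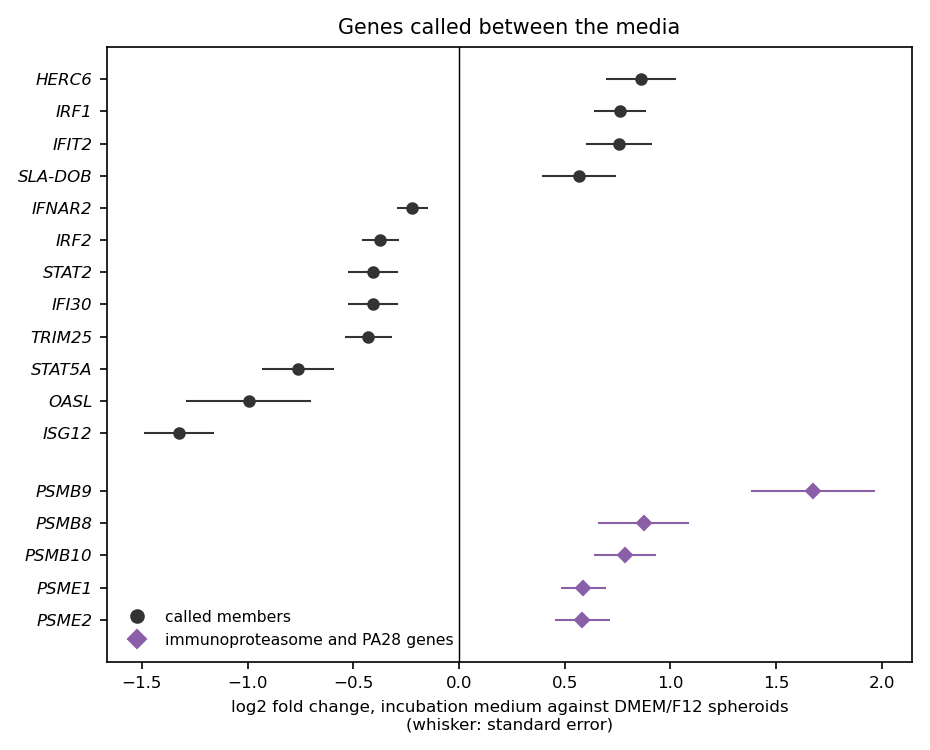
Log2 fold change of incubation medium against DMEM/F12 spheroids (x axis, whiskers are standard errors) for 12 of the 13 members called between the media (circles) and the 5 immunoproteasome and PA28 genes (diamonds). The 5 diamonds lie to the right of 0, and 8 of the 12 circles lie to the left.

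The class II pathway list held 7 tested genes. CD74, the invariant chain that escorts class II molecules, was at 1941, 2039.5, 1856 and 2158 CPM in fresh cells. CD74 was at 1507, 1549, 1767 and 1711 in DMEM/F12 spheroids and 2155, 2107, 1962 and 2209.8 in incubation medium spheroids. It was lower than fresh cells in DMEM/F12 (log2 fold change of -0.29, SE 0.079 and adjusted p = 0.00424), overlapped them in incubation medium (log2 fold change of 0.077, SE 0.079 and adjusted p = 0.393) and differed between the media (log2 fold change of 0.37, SE 0.079 and adjusted p = 0.00358). CTSS, the protease cathepsin S that trims the invariant chain, was at 41.9, 38.4, 34.4 and 38.6 CPM in fresh cells. Levels of CTSS were 65.7, 69.9, 39.4 and 49.9 in DMEM/F12 spheroids and 108, 106, 95.01 and 97.5 in incubation medium spheroids. It rose in both media and was higher in incubation medium without overlap. Its counts were not whole in all 12 libraries, meaning that reads were shared with another feature. CTSS had log2 fold changes of 0.55 (SE 0.15, adjusted p = 0.00412) in DMEM/F12 against fresh cells, 1.41 (SE 0.15, adjusted p = 1.04e-06) in incubation medium and 0.85 (SE 0.14, adjusted p = 0.000649) between the media. RFXAP, a subunit of the factor that binds class II promoters, fell in both (log2 fold change of -0.92, SE 0.086 and adjusted p = 3.01e-07, and log2 fold change of -0.41, SE 0.084 and adjusted p = 0.000564), while RFXANK rose in both (log2 fold change of 0.31 and 0.29) and RFX5 was not called. Of the class I chaperones, CANX (calnexin) was at 455 to 560.4, 316 to 368 and 416 to 478 CPM, lower in DMEM/F12 (log2 fold change of -0.60, SE 0.085 and adjusted p = 2.03e-05); in incubation medium it was not called (log2 fold change of -0.19, SE 0.085 and adjusted p = 0.0569) except without fresh replicate 2 (-0.23, adjusted p = 0.0337), with library totals or with a filter at a mean of 10 counts (-0.22 to -0.21, adjusted p 0.0308 to 0.0391). CALR (calreticulin) was not called in either medium.

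Most genes of the JAK kinase and feedback list were called lower: 8 of 11 were lower and 2 higher in DMEM/F12, and 7 lower and 2 higher in incubation medium, beside 35.7% lower and 35.1% higher of all tested genes in the first and 35.8% each way in the second. Of the 8 lower calls in DMEM/F12, JAK2 was lost without fresh replicate 1, 2 or 3 or DMEM/F12 replicate 1, 2 or 4, and CISH without fresh replicate 1 or 2 or DMEM/F12 replicate 2, 3 or 4 (log2 fold change of -0.28 and -0.44, adjusted p = 0.0402 and 0.0236 with all libraries, 0.0623 to 0.132 and 0.0528 to 0.0727 without them). Both were also lost with library totals and without the filter, JAK2 with DESeq2 and CISH with only whole-count rows. The PTPN1 call (-0.39, adjusted p = 0.013) was lost without fresh replicate 1 (-0.27, adjusted p = 0.0609) and without the filter (-0.32, adjusted p = 0.0513). SOCS3, a feedback inhibitor of cytokine receptors, was at 84.6, 94.5, 85.5 and 122 CPM in fresh cells. SOCS3 stood at 30.7, 25.8, 27.1 and 31.5 in DMEM/F12 spheroids and 21.7, 21.6, 16.2 and 28.7 in incubation medium spheroids, 3.36-fold and 4.38-fold lower without overlap. The fit gave SOCS3 a log2 fold change of -1.75 (SE 0.16, adjusted p = 1.94e-07) in DMEM/F12 and -2.13 (SE 0.16, adjusted p = 3.4e-08) in incubation medium. Between the media it was not called (log2 fold change of -0.38, SE 0.16 and adjusted p = 0.0989), but it was with the replicate block or library totals (-0.48 to -0.40, adjusted p 0.0109 to 0.0441) and without incubation medium replicate 4 (-0.53, adjusted p = 0.0227). SOCS1, the inhibitor of interferon receptor signalling, fell from 9.16–19.01 CPM to 4.01–6.96 and 3.70–9.27. For SOCS1 the log2 fold change was -1.36 (SE 0.28, adjusted p = 0.000627) in DMEM/F12 and -0.97 (SE 0.28, adjusted p = 0.0059) in incubation medium. JAK1, the kinase that serves all interferon receptors, fell slightly, at 135 to 149.8, 110.2 to 122 and 99.3 to 129.9 CPM (log2 fold change of -0.30, SE 0.086 and adjusted p = 0.00669, and log2 fold change of -0.32, SE 0.086 and adjusted p = 0.00374), and its DMEM/F12 call was lost once low-count genes were kept in (-0.22, adjusted p = 0.0594, with 0.00384 to 0.0594 over all alternatives). PIAS1, an inhibitor of activated STAT proteins, fell too, and its counts were not whole in 11 of the 12 libraries. PIAS1 had a log2 fold change of -0.49 (SE 0.080, adjusted p = 6.83e-05) in DMEM/F12 and -0.56 (SE 0.080, adjusted p = 2.06e-05) in incubation medium. PTPN11, the phosphatase SHP2, rose, from 31.5–36.5 CPM to 79.8–109 and 83.6–104. The fit gave PTPN11 a log2 fold change of 1.44 (SE 0.11, adjusted p = 3.47e-08) in DMEM/F12 and 1.44 (SE 0.11, adjusted p = 3.55e-08) in incubation medium.

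Among 7 genes of nucleic acid sensing, IKBKE, a kinase that activates IRF3 and IRF7, was at 1.57, 1.97, 2.43 and 1.76 CPM in fresh cells. Levels of IKBKE were 8.27, 11.96, 12.3 and 8.28 in DMEM/F12 spheroids and 5.37, 9.74, 9.60 and 7.93 in incubation medium spheroids, 5.24-fold and 4.19-fold above fresh cells. IKBKE had a log2 fold change of 2.39 (SE 0.26, adjusted p = 1.36e-06) in DMEM/F12 and 2.07 (SE 0.26, adjusted p = 6.57e-06) in incubation medium. STING1, the adaptor for cytosolic DNA, was at 41.1, 35.3, 40.9 and 46.8 CPM in fresh cells. STING1 was at 12.8, 20.4, 15.1 and 20.5 in DMEM/F12 spheroids and 23.5, 21.5, 32.00 and 35.5 in incubation medium spheroids. It fell in both media, less in incubation medium. STING1 had log2 fold changes of -1.25 (SE 0.18, adjusted p = 2.5e-05) in DMEM/F12 against fresh cells, -0.55 (SE 0.18, adjusted p = 0.0125) in incubation medium and 0.70 (SE 0.18, adjusted p = 0.0111) between the media. The double-stranded RNA receptor TLR3 was at 47.5 to 67.01, 39.03 to 55.2 and 34.5 to 51.7 CPM and was called lower in both. For TLR3 the log2 fold change was -0.36 (SE 0.15, adjusted p = 0.0436) in DMEM/F12 and -0.39 (SE 0.15, adjusted p = 0.0315) in incubation medium. The DMEM/F12 call of TLR3 was lost without fresh replicate 1, 2 or 4 or DMEM/F12 replicate 1, 3 or 4 (-0.39 to -0.27, adjusted p 0.0518 to 0.139), and the other without fresh replicate 1 or 2 or incubation medium replicate 3 or 4 (-0.34 to -0.27, adjusted p 0.0819 to 0.115). Both were lost without the filter on low counts and with DESeq2, and the first with library totals (-0.34 to -0.27, adjusted p 0.07 to 0.123, and -0.36 to -0.32, adjusted p 0.0506 to 0.0686). MAVS, the adaptor of the RNA sensors, was not called.

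Among the other interferon-stimulated genes, LGALS3BP, a secreted galectin-binding protein, was at 228, 155, 185 and 213 CPM in fresh cells. LGALS3BP stood at 100.2, 93.2, 69.9 and 111 in DMEM/F12 spheroids and 54.2, 61.7, 72.9 and 57.9 in incubation medium spheroids. It fell in both media, further in incubation medium. LGALS3BP had log2 fold changes of -1.06 (SE 0.15, adjusted p = 1.75e-05) in DMEM/F12 against fresh cells, -1.66 (SE 0.15, adjusted p = 2.4e-07) in incubation medium and -0.60 (SE 0.15, adjusted p = 0.00913) between the media. EIF2AK2, the kinase PKR that halts translation, also fell in both. The fit gave EIF2AK2 a log2 fold change of -1.06 (SE 0.12, adjusted p = 2.86e-06) in DMEM/F12 and -0.84 (SE 0.12, adjusted p = 2.63e-05) in incubation medium. UBE2L6, the enzyme that conjugates ISG15 together with HERC5, rose in both (log2 fold change of 1.46, SE 0.13 and adjusted p = 2.03e-07, and log2 fold change of 1.11, SE 0.13 and adjusted p = 3.07e-06), as did PARP9. For PARP9 the log2 fold change was 0.48 (SE 0.079, adjusted p = 8.74e-05) in DMEM/F12 and 0.58 (SE 0.079, adjusted p = 1.3e-05) in incubation medium. Of the interferon genes themselves, only IFNE, an interferon made constitutively by reproductive tract epithelium, passed the filter, and it fell in both media. It was at 11.5, 14.3, 11.6 and 13.3 CPM in fresh cells. IFNE stood at 9.97, 8.13, 5.42 and 9.25 in DMEM/F12 spheroids and 9.31, 6.67, 6.40 and 9.0 in incubation medium spheroids, without overlap between fresh cells and either medium. The fit gave IFNE a log2 fold change of -0.63 (SE 0.19, adjusted p = 0.00945) in DMEM/F12 and -0.69 (SE 0.19, adjusted p = 0.00522) in incubation medium. IFNG, made by T and NK cells, was at 0.348, 0.897, 0.748 and 0.784 CPM in fresh cells and at 0 in all 8 spheroid libraries; its fresh libraries held 2 to 5 counts, near the limit of 3 set by a count of 0, and it was not tested. IFNB1 reached at most 0.132 CPM, and CXCL9, a chemokine induced by interferon gamma, was at 0.374 to 1.96 CPM in fresh cells and 0 in the spheroids.

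Levels of 7 members differed with the replicate number shared by the groups, 13.7% of the 51, beside 7.19% of all tested genes (F-test of the number in the edgeR fit with the block, a test added after the data had been seen). They were ISG20 (adjusted p = 6.61e-05), IFI6 (adjusted p = 0.00274), SLA-DOB (adjusted p = 0.00512), SLA-6 (adjusted p = 0.00771), SLA-DMA (adjusted p = 0.0131), SLA-DRA1 (adjusted p = 0.0255) and TRIM29 (adjusted p = 0.0379). For IFI6 the 4 numbers stood in the same order in all 3 groups, with 4 the highest and 3 the lowest. SLA-DOB and SLA-DMA were highest in replicate 2 of every group and TRIM29 in replicate 4, whereas SLA-6 was highest in replicate 4 of the fresh cells and incubation medium spheroids and in replicate 2 of the DMEM/F12 spheroids. Within a group, the highest IFI6 library exceeded the lowest 1.64-fold in fresh cells, 3.36-fold in DMEM/F12 spheroids and 3.24-fold in incubation medium spheroids. The same test called 5 of the 44 tested pathway genes, 11.4%, beside 7.19% of all tested genes. They were PSMB8 (adjusted p = 0.0117), DTX3L (adjusted p = 0.0159), CREB1 (adjusted p = 0.0185), PSMB9 (adjusted p = 0.0189) and TLR3 (adjusted p = 0.0349).

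**Figure D5:**
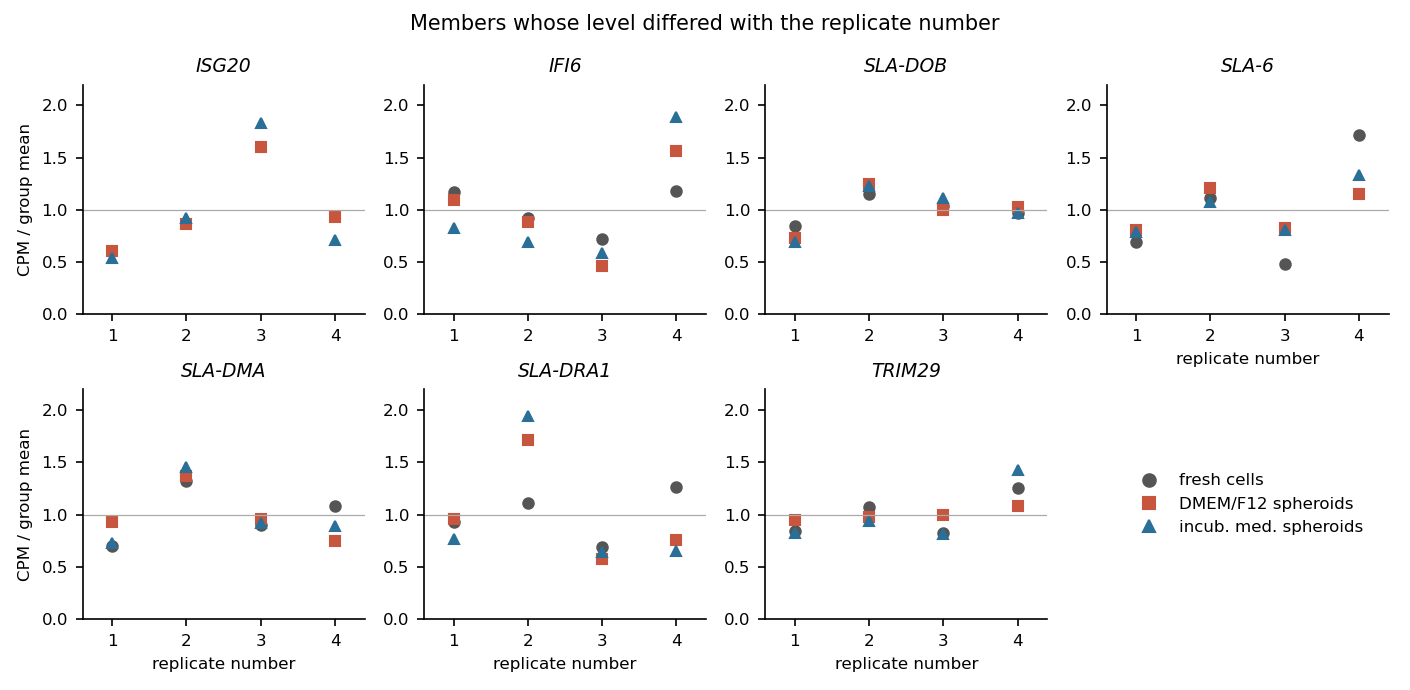
CPM divided by the group mean (y axis) against the replicate number (x axis) for the 7 members whose level differed with that number; each point is 1 library and the grey line marks the group mean. The fresh libraries of ISG20 are left out because they held at most 3 counts; for IFI6 replicate 4 stands highest and replicate 3 lowest in all 3 groups.

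Several members are neighbours in the RefSeq gene order of the pig assembly Sscrofa11.1, which was used for order only. IFNAR1 lies next to IFNGR2, and IFNAR2 is 1 protein-coding gene away; all 3 rose in both media. STAT5A and STAT5B are adjacent and rose together. Other neighbours parted in DMEM/F12 only: HERC5 and IFIT3 rose there, and the adjacent HERC6 and IFIT2 were not called. In incubation medium both pairs rose. RSAD2 was called higher in DMEM/F12, though not without some libraries, and the adjacent CMPK2 was not called (log2 fold changes 0.73 and 0.043). Neither of these was called in incubation medium without the replicate block. IRF9 fell in both media while the adjacent PSME2 rose. In the SLA region, PSMB8, TAP1 and PSMB9 lie in a row, SLA-DOB is 1 gene away on one side, and SLA-DMB with SLA-DMA is 1 gene away on the other. In incubation medium the first 4 of these rose (log2 fold changes 1.49, 0.69, 1.66 and 1.07) and SLA-DMB and SLA-DMA fell (-1.84 and -1.59).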

How the data were processed

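The authors deposited expected counts and CPM per gene, per the file headers; 19.1 to 20.5% of nonzero counts in a library were not whole, and CPM equalled count over total to within 5e-06. Per the submitters' processing notes, fastp 0.24.0, STAR 2.7.11, SAMtools 1.22.1 and featureCounts from Subread 2.1.1 were used; genome build, annotation and strand setting are not given in the sources used here. The design assumed counts, so expected counts were rounded. The 92 spike-in rows stayed out. Of 30461 gene rows, 14070 passed filterByExpr in edgeR 4.0.16 (R 4.3.3; limma 3.58.1), with TMM scaling, 1 quasi-likelihood fit of 12 libraries and Benjamini-Hochberg adjustment. The coefficient of biological variation was 0.146. CPM printed here are TMM-scaled; they are not scaled by transcript length, so ranks by CPM served only to choose genes to name or to tell the MX1 rows apart, and sums over markers weigh most the genes of highest CPM. The floor of 3 counts covers counting error only. Members and lists were chosen with earlier results of these data known.

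Members named one by one were ISG20, those called with an absolute log2 fold change of at least 1 and a mean of at least 5 CPM, the 2 of highest CPM per role, and IRF1; from the other lists, the 2 of highest CPM and those called with an absolute log2 fold change of at least 2. The other members and some list genes were added so that each member is accounted for, except 2 that enter the counts over all members and are not reported here. The replicate numbers come from the library names, which do not explain them. Libraries with the same number deviated from their group means together (correlations 0.226 to 0.284 and 0.196 to 0.293 between fresh cells and each medium, 0.394 to 0.516 between media, against -0.318 to 0.0233 for different numbers). The main fit held group means only, so its p-values and standard errors do not use this pairing. The number entered only in the fit with the replicate block and in the test of the number from that fit. Alternatives were other scalings, filters, rounding, DESeq2 1.42.0, fits of 2 groups, whole-count rows, the replicate block and leaving out each library. Each pair of libraries within a group differed by more than sampling noise (chi-square over its degrees of freedom, 5.61 to 16.1).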

Additional observations from a re-analysis of the deposited data

Results flagged for a closer look

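In 3 of the 144 groups of 4 libraries examined for the named genes, 1 library stood apart from the other 3; chance gives about 1 in 20. HERC5 in DMEM/F12 spheroids was at 139 CPM in replicate 2 and at 111.1 to 112.5 CPM in the others. IRF9 in incubation medium spheroids was at 77.3 CPM in replicate 2 and at 82.8 to 83.6 CPM in the others. SLA-DRA1 in incubation medium spheroids was at 23.6 CPM in replicate 2 and at 7.75 to 9.31 CPM in the others, and PTPRC and TYROBP were also highest in that library of the group, at 2.14 and 6.54 CPM. Of the other tested leukocyte markers, AIF1, CD53, FCER1G and CORO1A were highest there too. CD14 was highest in replicate 1 of the group, CXCR4 in replicate 3 and CD79A in replicate 4. The part of leukocytes in this value was not tested.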

How the results depend on the processing

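The numbers of called members changed by over 1.5 times under 2 alternatives. With only rows whose counts were whole in every library, 14 members were called in DMEM/F12 and 15 in incubation medium, each against fresh cells, and 3 between media; of the other pathway genes 13, 15 and 5 were called. Fewer rows entered that fit (21 members and 17 pathway genes). With the replicate block, 20 members were called between the media and no call was lost; the members called against fresh cells numbered 40 in each medium. Leaving out 1 library at a time gave 33 to 38, 33 to 37 and 9 to 14 members, and 27 to 32, 28 to 30 and 12 to 14 pathway genes. Of 3362 values for named genes, 3153 kept their direction and side of the threshold, 122 lost a call, 33 gained one and 54 changed sign; none of the last were called either way. The causes were not tested.

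The sign changes were as follows. In DMEM/F12 against fresh cells, USP18 was at 0.039 (library totals), 0.032 (no filter) and -0.17 to 0.11 (1 library left out), CALR at 0.023, 0.016, 0.021 (whole counts) and -0.18 to 0.084, and MAVS at 0.013 and 0.0095. In incubation medium against fresh cells, with 1 library left out, IRF1 was at -0.018 to 0.16, OASL at -0.090 to 0.25, SLA-6 at -0.035 to 0.58 and PSME1 at -0.096 to 0.025 (0.032 with no filter). Between the media, library totals put GBP1 at -0.089, IRF8 at -0.055, MX1 at -0.070, SLA-DMA at -0.021, STAT6 at -0.010 and TRIM28 at -0.048, and GBP1 was at -0.0083 with no filter and -0.0017 with a filter at a mean of 10 counts. With 1 library left out, GBP1 was at -0.23 to 0.16, IRF4 at -0.29 to 0.16, ISG20 at -0.25 to 0.54, MX1 at -0.067 to 0.12, SLA-DMA at -0.16 to 0.27, TRIM27 at -0.045 to 0.044, TRIM28 at -0.0016 to 0.071, USP18 at -0.0082 to 0.28, JAK1 at -0.100 to 0.033, IFNE at -0.21 to 0.042 and TLR3 at -0.11 to 0.087.

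Limits: with 4 libraries a group of unstated origin, symbols missing for many rows and reads shared among similar genes, the values describe these libraries. At this depth, genes near 3 counts, such as IFNG, could not be compared.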
